A study of Mus musculus with 6 samples.

Results

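Ligands and receptors of the tumor necrosis factor (TNF) superfamily, 10 genes in all, were followed in macrophages with and without AIF1, a calcium-binding adaptor protein of cells of the monocytic lineage. They were chosen by name: the ligands Tnfsf8, Tnfsf9, Tnfsf12 and Tnfsf13b, and the receptors Tnfrsf1a, Tnfrsf1b, Tnfrsf10b, Tnfrsf21, Fas and Cd40. These are 10 of the 47729 gene IDs counted in the RNA-seq, and 36 further ligands and receptors of the superfamily and 59 genes of receptor signalling were set beside them. RNA-seq compared 3 libraries of Aif1-/- bone marrow-derived macrophages (BMMs) with 3 libraries of WT BMMs, to learn how loss of AIF1 affects the transcriptome of these cells. Both genotypes were on the C57BL/6J strain, the Aif1-/- allele after backcrossing to it, and the marrow came from male mice at 8 weeks of age. In both, the cells were differentiated into macrophages, immortalized with SV40 large T-antigen, kept in CSF-1 at 120 ng/ml and used at passages 3 to 5, so the growth factor and the viral oncogene were common to all libraries. The study counts animals as its replicates, but the sources used here do not say whether each library came from its own immortalized line, so the spread behind the p-values is that among these cultures, which may be partly technical.

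Ligands of the TNF superfamily are trimeric proteins, most of them anchored in the membrane and some released by proteases, that cluster their receptors on a neighbouring or the same cell. Receptors without a death domain recruit TRAF adaptors and switch on NF-kB and MAP kinases, while those with a death domain, such as TNFR1 and Fas, can also assemble caspase-8 or the RIPK1, RIPK3 and MLKL necroptosis pathway. Macrophages are a main source of TNF itself, and they answer to TNF through TNFR1 and TNFR2.

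Counts assigned to genes ranged over the libraries between 17707986 and 29314253. The targeted gene fitted the labels: Aif1 had 4, 4 and 1 counts in the Aif1-/- libraries, against 220, 157 and 239 in the WT libraries. WT replicate 3 stood apart, with 25.5% of its reads matched to no gene, against 32.4% to 35.7% in WT replicate 1 and the Aif1-/- libraries. WT replicate 2 deviated the other way, at 40.4%. Results that rest on WT replicate 3 are given without it as well. All 7 macrophage markers were tested and 6 of them were higher in Aif1-/- cells (8.04% of all tested genes were), with a summed level of 116800 to 118600 normalized counts in Aif1-/- libraries and 79390 to 95320 in WT libraries. Of 6 platelet genes, 4 were tested and 3 were higher: Pf4, Treml1 and Ppbp. Ppbp passed the low-count filter through its Aif1-/- libraries only. Itga2b did not pass (log2 fold change -0.49, adjusted p = 0.606, edgeR), while Gp1bb was at 0 and Gp9 had 2 counts in all. The 6 genes summed to 2000 to 2094 in Aif1-/- libraries and 932.5 to 1049 in WT libraries. Most of this was Pf4, with means of 1745 in Aif1-/- cells and 892 in WT cells. The 5 dendritic cell markers summed to 62.6 to 104 normalized counts in Aif1-/- libraries and 48.1 to 66.2 in WT libraries, and Zbtb46 and Xcr1, the members tested, did not pass, although Xcr1 did not overlap between genotypes (log2 fold change 1.18, adjusted p = 0.0782, edgeR). The 6 T cell markers summed to 52.7 to 57.4 in Aif1-/- libraries and 49.3 to 59.4 in WT libraries, most of it Lck, the only member tested (-0.03, adjusted p = 0.95), with Cd3e and Cd3g at 0. No member of the B cell, NK cell, granulocyte or fibroblast lists had enough counts for a test, and the highest sums in any library of a genotype were 16 for Aif1-/- and 14.4 for WT, both for B cells. Low counts were left for Cd79a, Ms4a1, Klrb1c and S100a8, while Cd79b (B cells), Ncr1 and Gzmb (NK cells), Ly6g, S100a9, Elane and Mpo (granulocytes) and Dcn and Lum (fibroblasts) had none in any library. The part of these markers in the results on TNF family genes was not tested. In RNA from whole cultures, fewer cells that express a gene and less RNA per cell cannot be told apart.

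Of the 10 genes, 9 had enough counts to be tested. Tnfsf8, Fas and Tnfrsf1a fell in Aif1-/- cells, 0 rose, and the other 6 did not pass the test (edgeR's quasi-likelihood test, Benjamini-Hochberg adjusted p under 0.05 over all 17406 genes tested). The 3 lower genes were 33.3% of the 9, and the background for this direction was 10.5% of all genes tested, with 8.04% called higher and 18.6% called in either direction. With 9 genes, from a list chosen with earlier results of the same data known, no more is read from the share. No gene of the 9 was higher at an unadjusted p under 0.05 either, by edgeR or by DESeq2, which also called 0 higher at the adjusted threshold. The median log2 fold change (Aif1-/- minus WT) of the 9 genes was 0.11, beside 0 for all genes tested. In the same 3 genes, and in no other of the 10, every Aif1-/- library lay outside the range of the WT libraries, a separation shown by 35.7% of all tested genes, 19.1% with Aif1-/- below WT. Tnfsf8 and Fas, 2 of the 9, also had a log2 fold change of at least 1 in size, which 6.31% of all tested genes combined with a call.

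Promoter sequences are shown for the 2 genes with the largest differences, to give the DNA just upstream of their starts, where transcription factors of the interferon and NF-kB pathways can bind. The RefSeq table for GRCm38.p6 had windows for 6 of the 10 genes, and 3 motifs were searched on both strands of the 250 bases before the start. These motifs were GGNNTTTCC (a kappaB pattern, in 4.93% of 32851 windows of that length), GAAANNGAA (most of the core of an interferon-stimulated response element, in 7.13%) and TTCNNNGAA (the pattern of a gamma-activated site, which STAT factors bind, in 7.02%, reading alike on both strands). The Tnfsf8 window held GAAANNGAA starting 99 bases upstream of the start, and is printed from 250 to 64 bases upstream, the stretch outside annotated exons. The Fas window held TTCNNNGAA starting 93 bases upstream. Capitals mark these matches, which describe letters only. The kappaB and interferon patterns were shortened by 1 letter after a first search, and with a further A required at the end of the interferon pattern the Tnfsf8 window held no match. Tnfrsf1b held both TTCNNNGAA and GAAANNGAA upstream of its gene. Tnfrsf1a had a match to TTCNNNGAA, and Tnfsf13b had GAAANNGAA in only 1 of its 2 windows. Both of these matches lay past the annotated start of the gene, so they are not in DNA upstream of it. No window of the 6 genes held GGNNTTTCC.
Tnfsf8, chr4:63861348-63861534, minus strand: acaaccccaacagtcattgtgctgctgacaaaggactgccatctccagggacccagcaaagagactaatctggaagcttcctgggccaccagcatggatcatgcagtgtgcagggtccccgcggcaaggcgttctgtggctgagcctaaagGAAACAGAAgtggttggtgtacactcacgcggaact
Fas, chr19:34290409-34290658, plus strand: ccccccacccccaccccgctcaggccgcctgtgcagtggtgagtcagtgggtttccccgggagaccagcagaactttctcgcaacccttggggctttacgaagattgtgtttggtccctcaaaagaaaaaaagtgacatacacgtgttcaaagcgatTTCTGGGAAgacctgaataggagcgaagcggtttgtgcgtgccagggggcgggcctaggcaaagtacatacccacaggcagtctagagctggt

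Among the ligands, Tnfsf8 had the largest difference of the 10 genes. Tnfsf8 (ENSMUSG00000028362, chr4:63831308-63861347, minus strand) encodes CD30 ligand, a membrane protein that engages CD30 on activated lymphocytes. It had 9, 6 and 9 raw counts in the Aif1-/- libraries, against 958, 1088 and 957 in the WT libraries. Normalized to library size, these were 7.95, 7.99 and 11.9 in Aif1-/- BMMs and 963.2, 923.1 and 808.1 in WT BMMs. The genotypes were far apart, with the highest Aif1-/- library well below the lowest WT library. Tnfsf8 averaged 9.26 ± 2.24 normalized counts in Aif1-/- cells and 898 ± 80.5 in WT cells (SD, n = 3 each), and its log2 fold change was -6.60 (SE 0.18, 95% interval -7 to -6.21, adjusted p = 7.98e-09 by edgeR's quasi-likelihood test), or 97.3-fold lower. It passed the filter on low counts through its WT libraries, since only 1 of the 3 Aif1-/- libraries was above the filter's level.

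The receptor of this ligand, CD30 (Tnfrsf8), was close to the limit of detection in both genotypes. It had 8, 3 and 5 counts in Aif1-/- libraries and 3, 5 and 14 in WT libraries, too few for a test. The genes beside Tnfsf8 on chromosome 4 showed no difference of that size, and they were looked up after its value was known. Tnfsf15, a further ligand of the superfamily 86.2 kb away, had a log2 fold change of -0.83, while Rpl17-ps4 at 34.2 kb had -0.12 (adjusted p = 0.533, edgeR) and Tnc at 98.4 kb was higher, with 1.03 (adjusted p = 6.09e-05).

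The other 3 ligands did not pass the test. Tnfsf9 (ENSMUSG00000035678, chr17:57105325-57107757, plus strand) encodes 4-1BB ligand, which costimulates T cells through 4-1BB. It had 750.7, 755.1 and 738.7 normalized counts in Aif1-/- libraries and 532.9, 619.4 and 778.5 in WT libraries. The Aif1-/- libraries were close together and sat between WT replicates 2 and 3, so the genotypes overlapped. The log2 fold change was 0.22 (SE 0.13, 95% interval -0.07 to 0.50, edgeR adjusted p = 0.316). Without WT replicate 3, the highest of the WT libraries for Tnfsf9, it was 0.38 with an adjusted p of 0.00556, so the call depended on that library. Part of the gene, 14.88% of its exon bases, overlaps Gm11110 on the opposite strand, whose log2 fold change was -0.11 (adjusted p = 0.73).

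Its receptor 4-1BB (Tnfrsf9) had 0, 3 and 0 raw counts in Aif1-/- libraries and 14, 14 and 16 in WT libraries. The genotypes did not overlap, and Tnfrsf9 was lower in Aif1-/- cells (adjusted p = 0.0189, edgeR), although it passed the low-count filter through its WT libraries only. From the 3 counts against 44, the log2 ratio was -3.53 with a 95% counting interval of -5.86 to -1.89, which covers counting error only. The call was lost without Aif1-/- replicate 1 (adjusted p = 0.113), Aif1-/- replicate 3 (0.0916) or WT replicate 1 (0.0668).

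Tnfsf12 (ENSMUSG00000097328, chr11:69686250-69695849, minus strand) encodes TWEAK, which acts through FN14. It had 1539, 1480 and 1505 normalized counts in Aif1-/- libraries and 1464, 1255 and 1715 in WT libraries, the Aif1-/- values lying within the WT range. Its log2 fold change was 0.03 (SE 0.10, 95% interval -0.20 to 0.26, edgeR adjusted p = 0.898). The same-strand readthrough gene Tnfsfm13 covers 48.25% of the exon bases of Tnfsf12, and reads that fit both genes would be counted as ambiguous rather than assigned. Tnfsfm13 itself had 27 to 65 counts a library. FN14 (Tnfrsf12a) had 337 ± 7.32 normalized counts in Aif1-/- cells and 360 ± 62.2 in WT cells, with a log2 fold change of -0.10 (edgeR adjusted p = 0.714).

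Tnfsf13b (ENSMUSG00000031497, chr8:10006467-10039072, plus strand) encodes BAFF, the B cell survival factor that myeloid cells secrete. It had 703.0, 623.3 and 700.5 normalized counts in Aif1-/- libraries and 579.1, 623.6 and 638.4 in WT libraries. Aif1-/- replicates 1 and 3 were above every WT library, and replicate 2 was level with WT replicate 2. The log2 fold change was 0.14 (SE 0.09, 95% interval -0.06 to 0.34, edgeR adjusted p = 0.369). Of the BAFF receptors, TACI (Tnfrsf13b) had 113 ± 24.8 normalized counts in Aif1-/- cells and 126 ± 13 in WT cells (log2 fold change -0.15, adjusted p = 0.699). BAFF-R (Tnfrsf13c) had 1 count over the Aif1-/- libraries and 0 over the WT libraries, and BCMA (Tnfrsf17) had 2 over each genotype.

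**Figure D1:**
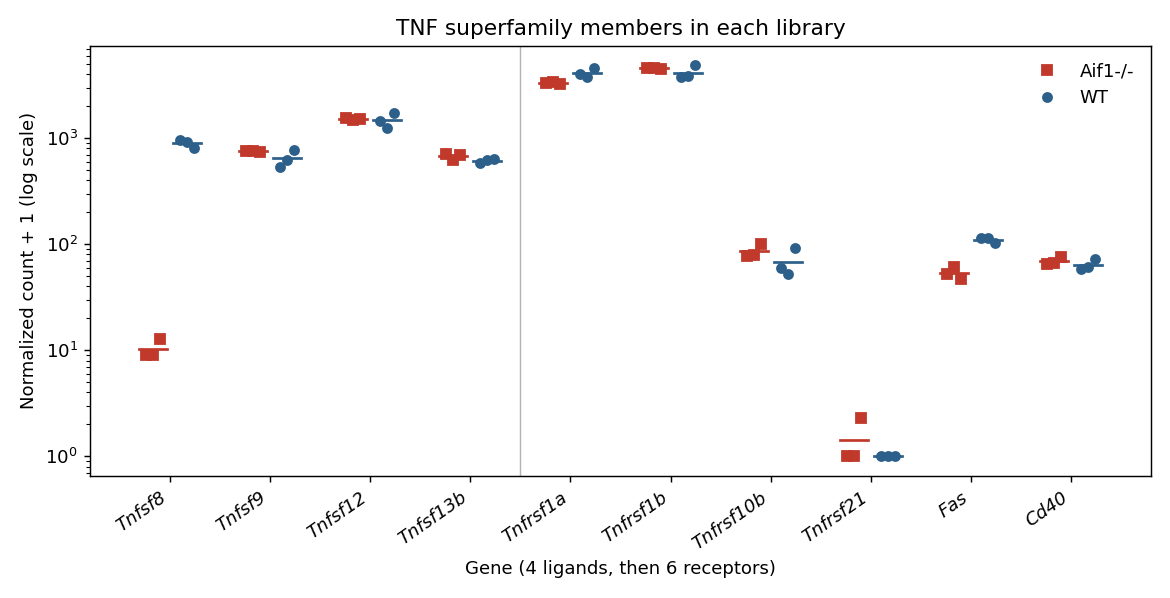
Normalized counts plus 1 (vertical axis, log scale) of the 10 genes in each library, with ligands left and receptors right of the grey line; red squares are Aif1-/- libraries, blue circles WT libraries and short lines the genotype means (3 libraries each). Tnfsf8, Fas and Tnfrsf1a have no overlap between genotypes, with Tnfsf8 at 7.95 to 11.9 normalized counts in Aif1-/- libraries and 808.1 to 963.2 in WT libraries.

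The receptors for TNF had the highest levels per kilobase of exon among the receptors listed, and of them Tnfrsf1a passed the test and Tnfrsf1b did not. Tnfrsf1a (ENSMUSG00000030341, chr6:125349362-125362484, plus strand) encodes TNFR1, the death-domain receptor that most cells carry. It had 3346, 3408 and 3276 normalized counts in Aif1-/- libraries and 4047, 3751 and 4620 in WT libraries. Every Aif1-/- library was below every WT library, and the WT libraries were spread more widely. Tnfrsf1a averaged 3343 ± 66.1 in Aif1-/- cells and 4139 ± 442 in WT cells (SD, n = 3 each), and its log2 fold change was -0.31 (SE 0.08, 95% interval -0.49 to -0.13, adjusted p = 0.0247 by edgeR's quasi-likelihood test), or 1.24-fold lower. This call was close to the threshold, and the adjusted p was 0.118, 0.102 and 0.13 without Aif1-/- replicate 1, 2 or 3 and 0.0649 without WT replicate 1, with log2 fold changes of -0.32 to -0.29. The log2 fold change was -0.22 without WT replicate 3, the highest library for Tnfrsf1a (edgeR adjusted p = 0.00986). Without WT replicate 2 it was -0.37 (0.00451).

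Tnfrsf1b (ENSMUSG00000028599, chr4:145213463-145246870, minus strand) encodes TNFR2, which lacks a death domain and is found mainly on immune and endothelial cells. It had 4622, 4563 and 4510 normalized counts in Aif1-/- libraries and 3791, 3840 and 4847 in WT libraries. The Aif1-/- libraries exceeded WT replicates 1 and 2 and lay below WT replicate 3. The log2 fold change was 0.13 (SE 0.09, 95% interval -0.08 to 0.34, edgeR adjusted p = 0.407). Without WT replicate 3 it was 0.26 with an adjusted p of 0.00134, and in a fit that took account of each library's share of reads matched to no gene it was 0.17 with an adjusted p of 0.032.

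The ratio of the TNF receptors within a library does not depend on how libraries are scaled, and it was computed after these values had been seen. Tnfrsf1a over Tnfrsf1b, in counts per kilobase of exon, was 1.07, 1.10 and 1.07 in Aif1-/- libraries and 1.57, 1.44 and 1.40 in WT libraries. It averaged 1.08 ± 0.0186 in Aif1-/- cells and 1.47 ± 0.0891 in WT cells (SD, n = 3 each), without overlap, and the exact two-sided permutation p was 0.1, the smallest that 3 against 3 can give. The ratios of all Aif1-/- libraries were thus under those of the WT libraries, WT replicate 3 included. The receptor counts already given fixed this, so the p of the ratio adds no support. The ligands were treated alike, as shares of the summed counts per kilobase of the 4 ligands in a library. Only exon bases not shared with another gene were used for the length. Tnfsf8 made up 0.0759%, 0.0787% and 0.115% in Aif1-/- libraries, against 9.41%, 9.71% and 6.63% in WT libraries (exact permutation p = 0.1). The Tnfsf8 counts already given fixed this separation, so the p adds no support. Since the shares add up to the whole, those of the other ligands are not independent of the Tnfsf8 share. Tnfsf12 held 71.1 ± 0.315% in Aif1-/- cells and 67.3 ± 2.82% in WT cells. The sizes of all these shares rest on the exon bases used. Over its whole exon length Tnfsf12 had 976 normalized counts per kilobase in WT cells, in place of 1890.

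**Figure D2:**
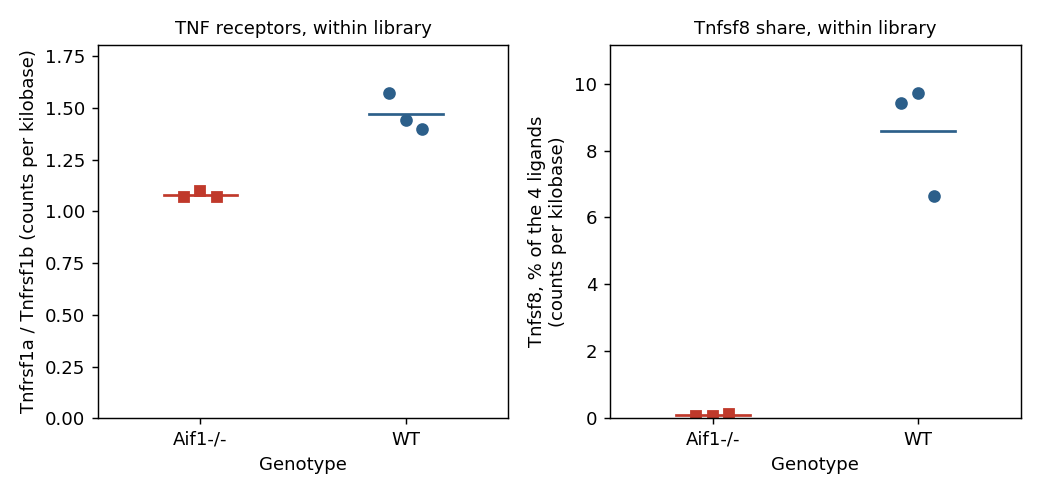
Within-library quantities in Aif1-/- (red squares) and WT (blue circles) libraries, with lines at the means of 3 libraries: left, the ratio of Tnfrsf1a to Tnfrsf1b in counts per kilobase, and right, the percentage of Tnfsf8 in the summed counts per kilobase of the 4 ligands. The receptor ratio lies at 1.07 to 1.10 in Aif1-/- libraries and at 1.40 to 1.57 in WT libraries. Lengths are of exon bases not shared with another gene.

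The ligands of these receptors were measured as well. Tnf, which binds both, had 929 ± 39.0 normalized counts in Aif1-/- cells and 923 ± 121 in WT cells, a log2 fold change of 0.01 (95% interval -0.22 to 0.23, edgeR adjusted p = 0.969). Tnf lies 23.3 kb from the disrupted Aif1 gene on chromosome 17. Lta, the gene of lymphotoxin alpha, had 2 counts over the Aif1-/- libraries and 3 over the WT libraries.

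Fas (ENSMUSG00000024778, chr19:34290666-34327772, plus strand), the death receptor for Fas ligand, was the most strongly lowered of the receptors listed. It had 51.2, 59.9 and 46.1 normalized counts in Aif1-/- libraries and 112.6, 112.8 and 102.2 in WT libraries. The genotypes did not overlap. Fas averaged 52.4 ± 7 in Aif1-/- cells and 109 ± 6.10 in WT cells (SD, n = 3 each), and its log2 fold change was -1.06 (SE 0.20, 95% interval -1.49 to -0.62, adjusted p = 0.00339 by edgeR's quasi-likelihood test), or 2.08-fold lower. The call held without any single library, with values of -1.15 to -0.98. Its ligand (Fasl) had 1 count over the Aif1-/- libraries and 0 over the WT libraries.

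Tnfrsf10b, Cd40 and Tnfrsf21 gave no difference that the test could resolve. Tnfrsf10b (ENSMUSG00000022074, chr14:69767472-69784411, plus strand), the mouse death receptor for TRAIL, had 76.8, 78.6 and 98.8 normalized counts in Aif1-/- libraries and 59.3, 50.9 and 90.4 in WT libraries. WT replicate 3 overlapped the Aif1-/- libraries, and the log2 fold change was 0.33 with a wide 95% interval of -0.24 to 0.90 (SE 0.26, edgeR adjusted p = 0.45). Without WT replicate 3 it was 0.62 with an adjusted p of 0.0539. TRAIL itself (Tnfsf10) had 59.2, 38.6 and 60.6 in Aif1-/- libraries and 38.2, 28.9 and 31.2 in WT libraries. Its libraries did not overlap, by a margin of less than a count, and it did not pass the test (log2 fold change 0.70, SE 0.28, edgeR adjusted p = 0.123).

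Cd40 (ENSMUSG00000017652, chr2:165055627-165072948, plus strand), through which T cell CD40 ligand activates macrophages, had 64.5, 65.3 and 75.0 normalized counts in Aif1-/- libraries and 57.3, 59.4 and 71.8 in WT libraries. The genotypes overlapped, and the log2 fold change was 0.11 (SE 0.21, 95% interval -0.36 to 0.59, edgeR adjusted p = 0.791). Its ligand gene, Cd40lg, had 0 counts in every library. Tnfrsf21 (ENSMUSG00000023915, chr17:43016555-43089189, plus strand), the gene of death receptor 6, had a single count, in Aif1-/- replicate 3, and 0 in the WT libraries. A sum of 0 allows up to 3 counts over a genotype, so no fold is given.

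**Figure D3:**
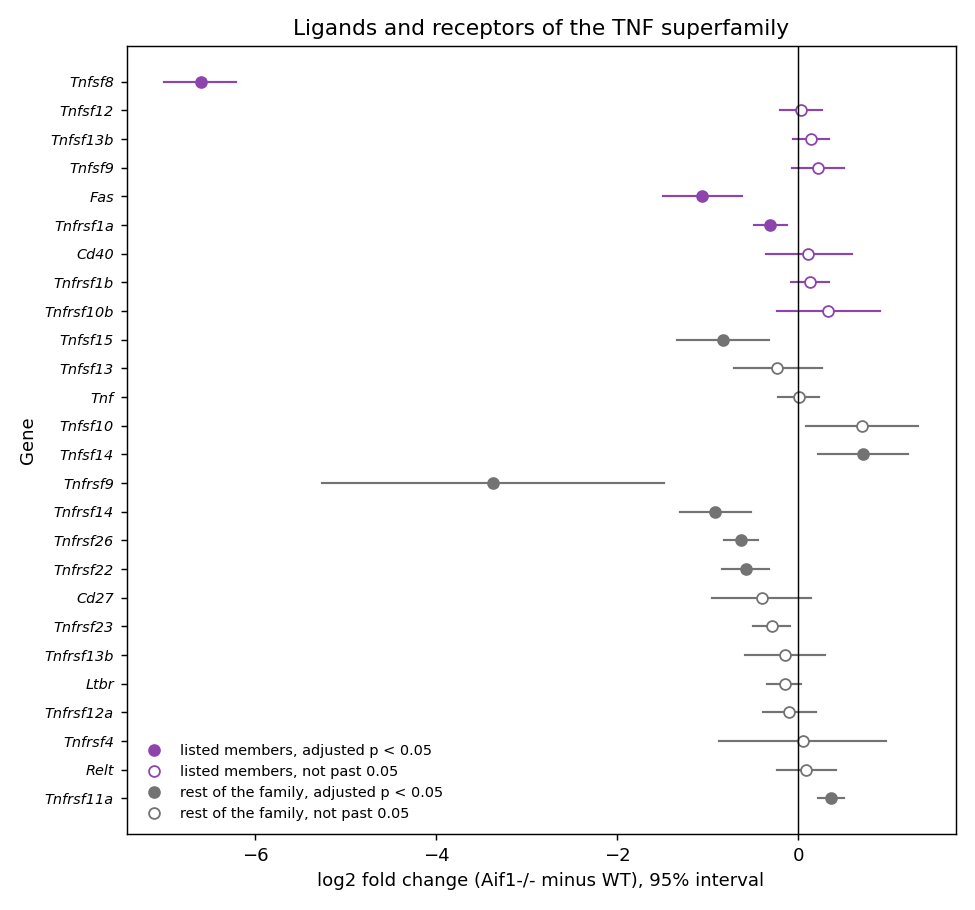
log2 fold changes (horizontal axis, Aif1-/- minus WT) with 95% intervals for the tested ligands and receptors, the listed members in purple and the rest of the family in grey, filled where the adjusted p was under 0.05. Tnfsf8 stands at -6.60, while the fold changes of the other listed members lie between -1.06 and 0.33.

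Per kilobase of exon not shared with another gene, the transcript levels of the members spanned a wide range. In Aif1-/- cells the order was Tnfsf12 (1920 ± 38.3 normalized counts per kilobase), Tnfrsf1a (1290 ± 25.5), Tnfrsf1b (1200 ± 14.7), Tnfsf9 (681 ± 7.76), Tnfsf13b (98.4 ± 6.6), Fas (25.4 ± 3.39), Cd40 (20 ± 1.73), Tnfrsf10b (15.5 ± 2.23) and Tnfsf8 (2.43 ± 0.589), with Tnfrsf21 last. Neighbours in that order did not overlap between libraries. In WT cells Tnfsf8 had 236 ± 21.2, between Tnfsf9 (586 ± 113) and Tnfsf13b (89.4 ± 4.49), and the order of the others was the same. Tnfsf12 (1890 ± 294) and Tnfrsf1a (1600 ± 170) overlapped in WT libraries and cannot be ordered there. The place of Tnfsf12 rests on the exon bases used, since over its whole exon length it had 976 per kilobase in WT cells.

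The remaining 36 ligands and receptors of the superfamily were mostly silent or low, and 17 of them were tested. They too were listed with earlier results of the same data known, so their share is a description. Of these 17, 2 were higher and 5 lower in Aif1-/- cells (41.2% called, beside 18.6% of all genes), with a median log2 fold change of -0.15 beside 0, and 5 of the 36 had no count in any library. Among the ligands, LIGHT (Tnfsf14) was higher, with a log2 fold change of 0.72 (adjusted p = 0.0482, edgeR), and TL1A (Tnfsf15) was lower, with -0.83 (adjusted p = 0.0289). Neither call held in DESeq2, where the adjusted p was 0.0588 for Tnfsf14 and 0.0654 for Tnfsf15. Each was also lost without any single Aif1-/- library (0.132 to 0.166 and 0.0761 to 0.135) and without WT replicate 1 (0.141 for Tnfsf14 and 0.0912 for Tnfsf15), and that of Tnfsf14 without WT replicate 2 (0.076).

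Among the receptors, RANK (Tnfrsf11a), which RANK ligand engages to drive osteoclast formation, rose to 3782 ± 76.5 normalized counts in Aif1-/- cells, against 2956 ± 106 in WT cells (log2 fold change 0.36, adjusted p = 0.00259, edgeR). HVEM (Tnfrsf14), a receptor of LIGHT, was lower, with 126 ± 16.1 in Aif1-/- cells and 239 ± 43.2 in WT cells (-0.92, adjusted p = 0.00456). The decoy-type TRAIL receptor gene Tnfrsf22 was lower (-0.58, adjusted p = 0.00536), as was Tnfrsf26, with 839 ± 10.9 in Aif1-/- cells and 1298 ± 124 in WT cells (-0.63, adjusted p = 0.000454). Tnfrsf23, the third gene of this cluster on chromosome 7, had -0.29 and an adjusted p of 0.0533, with every Aif1-/- library below every WT library. These 3 genes are close relatives, and how reads that fit more than 1 of them were placed was not checked.

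Downstream of the receptors, the 59 listed signalling genes included 55 tested, of which 7 were higher and 16 lower (41.8% called, beside 18.6% of all tested genes). These lists were drawn up with earlier results of the same data known, so their shares are descriptions. Of the 24 adaptors and kinase complex genes, all tested, 3 were higher and 2 lower (20.8% called, near the 18.6% of all tested genes), with a median log2 fold change of -0.04. TRAF1 (Traf1), an adaptor of TNFR2, CD30 and 4-1BB whose gene is itself an NF-kB target, had the largest difference among them. It had 27.4, 21.3 and 25.0 normalized counts in Aif1-/- libraries and 151.8, 123.9 and 152.0 in WT libraries, and the genotypes were well apart (log2 fold change -2.52, SE 0.21, edgeR adjusted p = 1.75e-05). The kinase TAK1 (Map3k7) and its binding partner Tab2 were higher, each with 0.38 (adjusted p = 0.00247 and 0.00287). Rnf31, the catalytic subunit of the linear ubiquitin ligase complex, was lower (-0.37, adjusted p = 0.0289), a call lost without any single Aif1-/- library (0.07 to 0.162). The third higher gene, Ikbkg, which falls outside the naming rule and was added after its value was seen, had 0.22 (adjusted p = 0.0396), and lost the call in DESeq2 (0.0522), without any single Aif1-/- library (0.105 to 0.225) and without WT replicate 1 (0.0936).

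In the cell death arm 4 of 11 genes were lower and the other 7 did not pass (36.4% called, beside 10.5% of all tested genes called lower), with a median log2 fold change of -0.25. Ripk3, the kinase that triggers necroptosis, had 60.1, 98.5 and 88.2 normalized counts in Aif1-/- libraries and 273.5, 247.8 and 246.6 in WT libraries. Its genotypes did not overlap, and the log2 fold change was -1.65 (SE 0.19, edgeR adjusted p = 0.000149). Mlkl, the pore-forming protein that RIPK3 activates, was lower, with a log2 fold change of -0.67 (adjusted p = 0.000138). Cflar, which restrains caspase-8, had -0.50 (adjusted p = 0.000524) and Daxx, a nuclear protein first described as a Fas partner, -0.46 (adjusted p = 0.00138). Caspase-8 itself (Casp8) did not pass, with -0.03 (adjusted p = 0.835), and it was also added after its value was seen.

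Among genes for shedding of family members, 4 of 5 were tested, with 1 higher and 1 lower (18.6% of all tested genes were called). Rhbdf1, which encodes an inactive rhomboid that helps mature the TNF-shedding protease ADAM17, had 7.07, 6.66 and 9.22 normalized counts in Aif1-/- libraries and 38.2, 64.5 and 69.2 in WT libraries. The genotypes did not overlap, and Rhbdf1 had a log2 fold change of -2.90 (SE 0.37, edgeR adjusted p = 0.000334), having passed the low-count filter through its WT libraries only. Adam10, a related sheddase, was higher (0.38, adjusted p = 0.00112). Adam17 (0.17, adjusted p = 0.0862, edgeR) and Rhbdf2 (0.20, adjusted p = 0.0764) did not pass, and both were added after their values were seen. For both, every Aif1-/- library was above every WT library, as for 16.5% of all tested genes. Rhbdf2 averaged 1774 normalized counts in Aif1-/- cells and 1539 in WT cells, against 7.65 and 57.3 for Rhbdf1.

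Of the 19 NF-kB target genes, 16 were tested and 12 were called (75%, beside 18.6% of all tested genes), with 9 lower and 3 higher and a median log2 fold change of -0.57. Each gene was put in a single list, and further NF-kB targets, such as Traf1, stand in other lists. The share thus depends on how genes were allotted. Icam1, an adhesion molecule induced by TNF, had 393.0, 423.5 and 389.7 normalized counts in Aif1-/- libraries and 1458, 1287 and 1663 in WT libraries. These values did not overlap, and the log2 fold change was -1.87 (SE 0.11, edgeR adjusted p = 9.46e-07). Ier3, an early response gene, had 28.4 ± 9.77 in Aif1-/- cells and 377 ± 86.7 in WT cells (-3.73, adjusted p = 3.37e-06), and Tnfaip2 (-1.27, adjusted p = 1.3e-05) and the matrix protease gene Mmp9 (-2.20, adjusted p = 0.000185) were lower too.

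The list did not move as a block. The 3 higher genes lie outside the naming rule and were picked with their values known: they were the chemokine genes Cxcl2 (1.84, adjusted p = 0.00559, edgeR) and Ccl2 (0.40, adjusted p = 0.0014) and Il1b (1.57, adjusted p = 0.0454). Il1b passed the low-count filter through its Aif1-/- libraries, since only 1 of the 3 WT libraries was above the filter's level. Its call rests on 5 to 23 counts a library and was lost in DESeq2 (0.0911), without any single Aif1-/- library (0.127 to 0.172) and without WT replicate 2 (0.0883) or 3 (0.0543). The 4 that did not pass included Nfkbia, the feedback inhibitor of NF-kB (-0.07, adjusted p = 0.743), and Nfkb1 (0.04, adjusted p = 0.756).

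**Figure D4:**
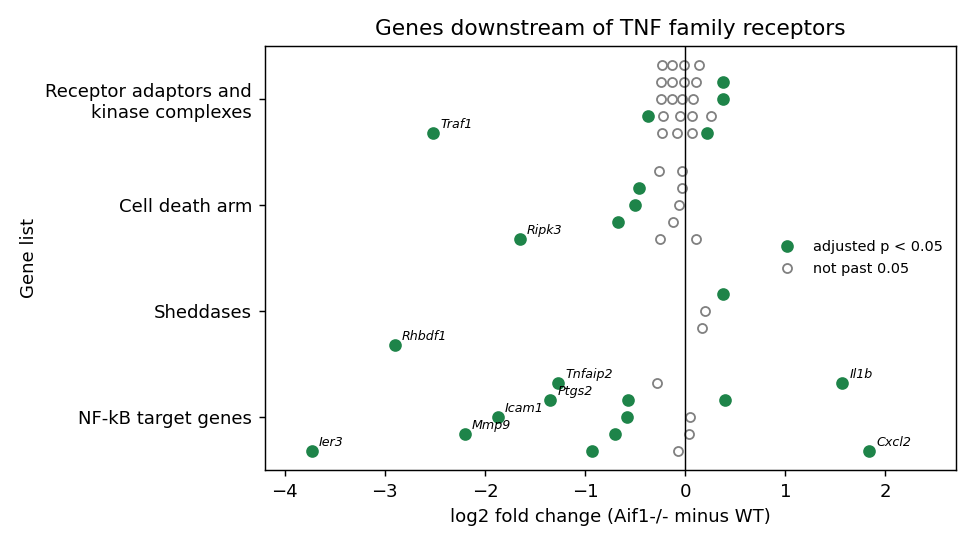
log2 fold changes (horizontal axis, Aif1-/- minus WT) of the tested genes of the 4 signalling lists (rows), a point a gene, filled where the adjusted p was under 0.05; points are spread vertically within a row for legibility and only large changes are labelled. Among the adaptors Traf1 lies at -2.52, and the NF-kB targets range from -3.73 (Ier3) to 1.84 (Cxcl2).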

How the data were processed

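RNA-seq was analysed in all 6 libraries, 3 per genotype, grouped by the labels. The deposited files held raw gene counts made by the authors, per the submitters' processing notes and the methods, with Trim Galore 0.5, TopHat2 2.0.13 (GRCm38, at most 1 location per read) and HTSeq 0.6.1p1 on Ensembl release 84. Rows naming no gene (25.5% to 40.4% of reads without a feature, 4.55% to 7.15% ambiguous) were left out. Symbols and coordinates came from GENCODE M21, which matched 47310 of 47729 IDs. Genotype was tested with edgeR 4.0.16 (R 4.3.3, limma 3.58.1), using TMM, the default low-count filter (17406 genes kept) and Benjamini-Hochberg adjustment over these genes, and the fit was tested on simulated data. Normalized counts are counts over TMM-scaled library size, brought to the mean library, and the SE is the log2 fold change over the square root of F. Totals of 17707986 to 29314253 counts set the precision. Named were all members, their known partners whatever their values, up to 4 called genes of each other list by smallest adjusted p, and called family genes with a log2 fold change of at least 1. Members and lists were chosen with earlier results of these data known. The 15 alternatives included DESeq2 1.42.0, other size factors and filters, a replicate block, thinning, glmTreat with a minimum log2 fold change of 1, the percentage of reads matched to no gene as a covariate, and leaving out each library.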

Additional observations from a re-analysis of the deposited data

How the results depend on the processing

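Tnfsf8 kept its direction and its call under all 15 alternatives (-6.79 to -6.40), and Fas under 14 of them. Under edgeR's glmTreat with a minimum log2 fold change of 1, 599 of all genes passed in place of 3231, with 1 listed member in place of 3, 0 further family genes in place of 7 (1 at an unadjusted p under 0.05; DESeq2 against 0 called 5) and 6 signalling genes in place of 23. With the percentage of reads matched to no gene as a covariate, 5517 genes passed. Leaving out single libraries gave 2040 to 4889 genes, 2 to 5 listed members, 4 to 8 further family genes and 19 to 28 signalling genes. The highest of each came without WT replicate 3, where Tnfsf9 and Tnfrsf1b were called higher. Without WT replicate 2, the log2 fold change of Tnfsf12 was -0.07, in place of 0.03, and neither passed; leaving out single libraries gave it values of -0.07 to 0.16. With the replicate number as a block, 2872 genes, 3 listed members, 5 further family genes and 21 signalling genes passed. Deviations of same-numbered libraries correlated at 0.06, -0.08 and -0.09, so no pairing by number was seen. With 3 libraries a genotype this check cannot exclude one, and the labels do not state one. At 3 libraries a genotype and 59 to 107 counts a library, differences in Tnfrsf10b within its interval could not be resolved.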
